A study of Rattus norvegicus with 10 samples.

Results

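Transcripts of the caspases, the BCL2 family, the death receptors with their ligands and adaptor, and the inhibitors of apoptosis were compared between whole mammary glands of 5 ACI rats (ACI/SegHsd) and 5 BN rats (Brown Norway). The group holds 37 genes, chosen by symbol. Of these, 34 are measured by at least 1 probe set that is annotated to the gene's symbol alone, out of 14217 genes measured in this way, and each gene is represented by its probe set of highest mean on the 10 arrays. The effector *Bax* and the cytochrome c gene *Cycs* are found only on probe sets that carry other symbols as well and *Pmaip1* on none, so these 3 genes were not analysed here.

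Every rat received 17β-estradiol (E2) continuously from a subcutaneous implant for 12 weeks, beginning at 9 weeks of age, and the ACI rats are labelled as females of 21 weeks at the end. Each rat gave 1 Affymetrix rat genome array, and no array of an untreated rat was analysed, so the differences compare E2-treated strains and say nothing of how either strain responded to E2. Values are on the log2 scale, in which a difference of 1 is a 2-fold change, and a difference above 0 means a higher level in ACI. A probe set is called when its limma p-value, adjusted over all 31042 probe sets, is under 0.05, and values under 4 are taken as near background. The 2 strains were deposited separately, and the RNA isolation text given for BN names ACI rats, so deposit and strain cannot be told apart. The arrays correlated at 0.981 to 0.995 within ACI, at 0.957 to 0.992 within BN and at 0.935 to 0.960 between strains, and BN rats 4 and 5 lay together at the far end of the second principal component. The tissue label was borne out by *Epcam*, *Krt8*, *Krt5* and *Adipoq*, which mark epithelium and fat cells and had means of 9.09 to 13.03 in both strains. The estrogen receptor gene *Esr1* was at the lowest value of the data, 2.23, on every array. Its probe set thus gave no usable reading, and nothing can be said about its expression.

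Apoptosis is started by 2 routes. In the extrinsic route, ligands such as FASLG and TRAIL bind death receptors on the cell surface, and the adaptor FADD then recruits caspase 8, which its relative FLIP (the product of *Cflar*) holds in check. In the mitochondrial route, BH3-only proteins relieve or activate the effectors BAX, BAK and BOK, the survival members of the BCL2 family oppose them, and factors released from the mitochondria lead to the apoptosome of APAF1 and caspase 9. Inhibitors of apoptosis such as XIAP act on the caspases themselves, while caspases 1, 4 and 12 belong to the inflammatory branch, which processes cytokines and drives a lytic form of death. In the mammary gland, apoptosis removes the secretory epithelium when lactation ends, and *Mcl1* and *Bcl2l1* are known for keeping mammary epithelial cells alive.

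Of the 34 measured genes, 11 differed between the strains. *Mcl1*, *Bmf*, *Aifm1*, *Casp6*, *Xiap* and *Casp4* were higher in ACI, and *Casp8*, *Cflar*, *Tnfrsf1a*, *Bcl2a1* and *Casp1* were higher in BN. The differences ran from 1.63-fold for *Tnfrsf1a* to 6.38-fold for *Casp8*. Among all genes measured, 17.4% were called, with 8.29% called toward ACI and 9.12% toward BN. Since 30 of the 34 genes had a mean of at least 4, the genes with such a mean are the closer comparison, and 24.7% of those were called. The strains did not overlap for 10 of the 34 genes, 6 higher in ACI and 4 higher in BN. This held for 16.6% of all genes, 8.3% with ACI higher and 8.32% with BN higher. The median difference over the 34 genes was -0.06 and over all genes 0, and 14 of the 34 differences were above 0 and 19 below. In size, without regard to sign, the median difference was 0.47, compared with 0.41 over all genes with a mean of at least 4.

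**Figure D1:**
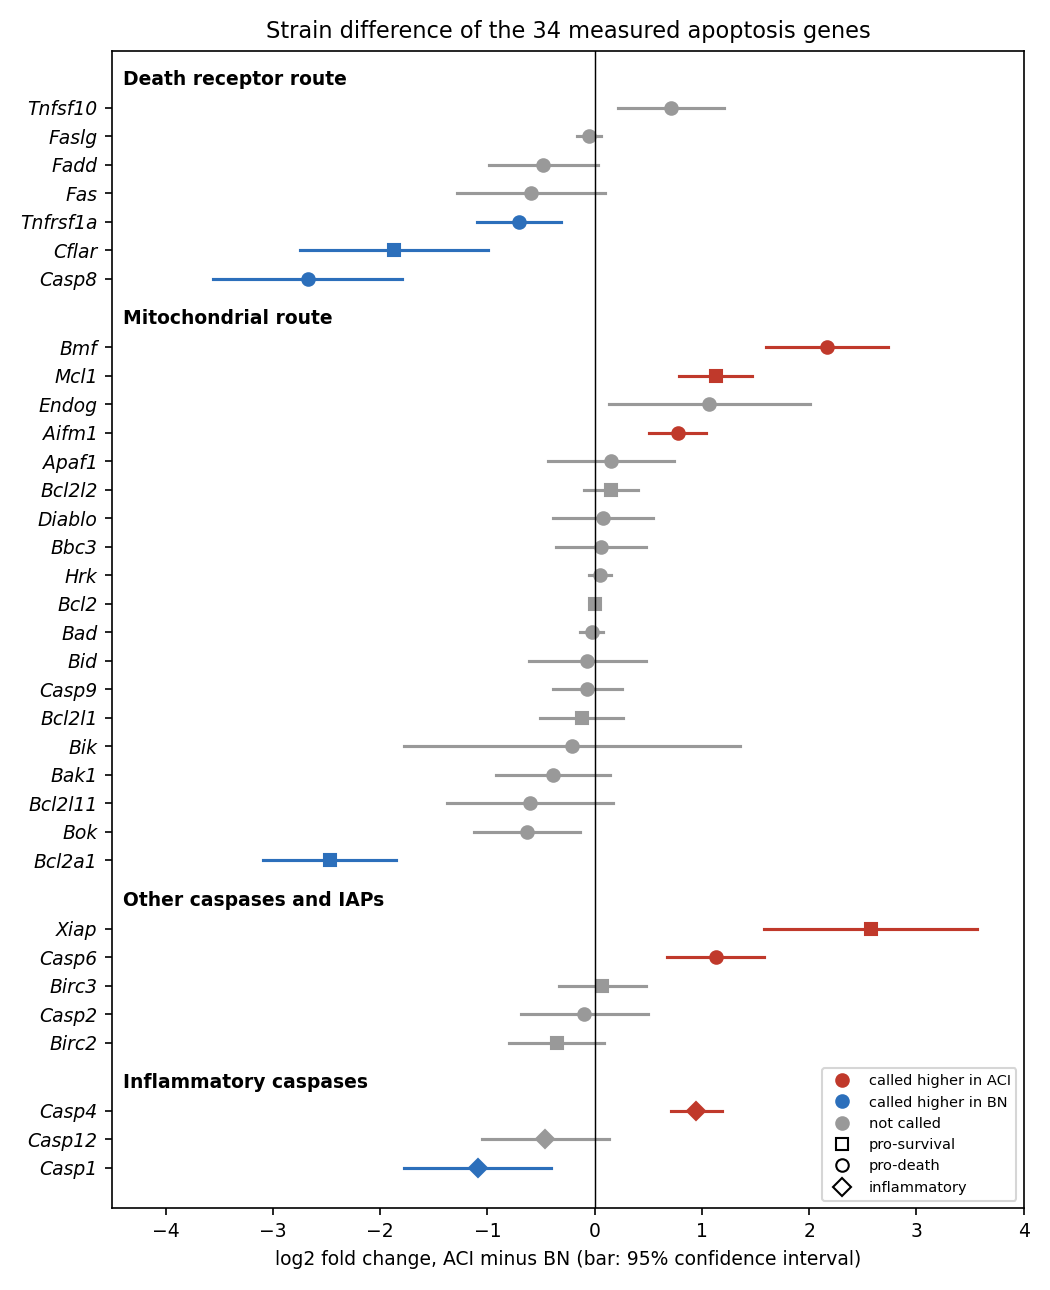
Log2 difference between ACI and BN for the 34 measured genes, grouped by role, with the 95% confidence interval from limma as bars; genes called higher in ACI are red, those called higher in BN blue and the rest grey, and squares mark pro-survival, circles pro-death and diamonds inflammatory genes. Of the 7 extrinsic genes, 6 lie below 0, while the mitochondrial genes lie on both sides of it.

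Of the 7 extrinsic genes, limma called 3 higher in BN, or 42.9%, and 0 higher in ACI. Another, *Tnfsf10*, had an unadjusted limma p under 0.05 toward ACI. The median difference of the extrinsic genes was -0.60, and 6 of 7 were below 0. Of the 19 mitochondrial genes, 3 were called higher in ACI and 1 in BN, or 21.1%, beside 17.4% of all genes. The 24.7% given above is over genes with a mean of at least 4. Only 16 of the 19 had such a mean, the 4 called genes among them. The median of the 19 was 0, and 9 were above and 9 below 0. The mean level of the extrinsic genes was 5.79, 5.58, 5.87, 5.73 and 5.78 in ACI rats 1 to 5 and 6.96, 6.62, 6.24, 6.59 and 6.39 in BN rats 1 to 5. The mean of every BN rat thus lay above that of every ACI rat, but this rested on *Casp8* and *Cflar*. Over the other 5 genes, a selection made after the values were seen, the mean was 6.30, 6.15, 6.40, 6.25 and 6.08 in ACI and 6.70, 6.52, 6.41, 6.44 and 6.23 in BN, and BN rat 5 lay within the ACI range. The mean level of the mitochondrial genes was 6.33 to 6.57 in ACI and 6.27 to 6.58 in BN, and the ranges overlapped almost fully. These are descriptions of chosen genes, and the difference between the routes was not tested.

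The genes were also sorted by the outcome each protein is known for. Of the 9 pro-survival genes, 2 were higher in ACI and 2 in BN, or 44.4%, with a median difference of 0. Of the 22 pro-death genes, 3 were higher in ACI and 2 in BN, or 22.7%, with a median of -0.06. Among all genes 17.4% were called, and 24.7% of those with a mean of at least 4. Such a mean was held by 8 of the 9 pro-survival and 19 of the 22 pro-death genes. The mean level of the pro-survival genes was 7.09 to 7.11 in the ACI rats, a range of 0.02, and 6.88 to 7.44 in the BN rats. The pro-death mean was 6.28 to 6.50 in ACI and 6.22 to 6.54 in BN. Within both outcomes the called genes went both ways. Among the survival genes *Mcl1* and *Xiap* were higher in ACI and *Bcl2a1* and *Cflar* in BN, and among the death genes *Bmf*, *Aifm1* and *Casp6* were higher in ACI and *Casp8* and *Tnfrsf1a* in BN.

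Proximal promoters are shown for 4 of the called genes, which form the opposed pairs of the comparison: the survival genes *Bcl2a1* and *Cflar*, higher in BN, and the BCL2 family genes *Mcl1* and *Bmf*, higher in ACI. Sequences are from RefSeq, build GRCr8, and run 5′ to 3′ on the gene's strand from 250 bases before the start of the transcript to 50 bases after it. The windows are chr8:98596556-98596855 on the plus strand for *Bcl2a1*, chr9:67679299-67679598 on the plus strand for *Cflar*, chr2:185907918-185908217 on the plus strand for *Mcl1* and chr3:125974015-125974314 on the minus strand for *Bmf*. Capitals mark a match to 1 of 4 letter patterns that were searched on both strands, GAAANNGAA (interferon response type), TGANTCA (AP-1 type), TTCNNNGAA (STAT type) and the NF-kB consensus, none of which overlapped another in these windows.
Bcl2a1: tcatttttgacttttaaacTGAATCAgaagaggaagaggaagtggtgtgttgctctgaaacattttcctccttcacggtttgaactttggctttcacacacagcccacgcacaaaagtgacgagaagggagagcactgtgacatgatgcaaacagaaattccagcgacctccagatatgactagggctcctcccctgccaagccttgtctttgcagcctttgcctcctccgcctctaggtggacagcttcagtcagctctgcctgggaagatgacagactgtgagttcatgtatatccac
Cflar: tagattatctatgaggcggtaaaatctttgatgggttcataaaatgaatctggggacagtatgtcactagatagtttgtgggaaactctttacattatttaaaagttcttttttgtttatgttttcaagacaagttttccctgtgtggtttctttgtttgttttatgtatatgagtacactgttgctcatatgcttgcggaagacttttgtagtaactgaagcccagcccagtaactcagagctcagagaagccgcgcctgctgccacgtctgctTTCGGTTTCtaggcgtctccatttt
Mcl1: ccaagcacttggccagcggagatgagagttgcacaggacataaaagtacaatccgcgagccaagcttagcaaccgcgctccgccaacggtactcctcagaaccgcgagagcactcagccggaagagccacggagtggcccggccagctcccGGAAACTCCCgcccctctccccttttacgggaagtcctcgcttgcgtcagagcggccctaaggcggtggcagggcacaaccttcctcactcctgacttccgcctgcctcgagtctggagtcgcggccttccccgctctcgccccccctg
Bmf: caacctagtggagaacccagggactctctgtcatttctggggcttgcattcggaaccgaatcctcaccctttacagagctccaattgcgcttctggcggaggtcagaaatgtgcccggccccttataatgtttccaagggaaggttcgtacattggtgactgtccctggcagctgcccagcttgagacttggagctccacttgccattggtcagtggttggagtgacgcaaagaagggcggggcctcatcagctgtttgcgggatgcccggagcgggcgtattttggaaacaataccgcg

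The *Bcl2a1* window holds an AP-1 type match at position -231, counted from the start, a pattern found in 7.33% of the 33469 promoters of the table. The *Cflar* window holds an interferon response type match, on the minus strand, beginning at base 26 after the start, as do 9.71% of promoters. The *Mcl1* window holds a match to the NF-kB consensus, on the minus strand, at position -99, as do 7.51% of promoters. No match lies in the *Bmf* window, which says only that these letters are not there. The GC content was 48.7% for *Bcl2a1*, 39.7% for *Cflar*, 64.3% for *Mcl1* and 55.7% for *Bmf*. Of the 37 genes, 29 have a promoter in the table. The interferon response type pattern was found in 5 of these, *Casp1*, *Casp12*, *Cflar*, *Fas* and *Tnfsf10*. The NF-kB consensus was found in 5 as well, *Fadd*, *Fas*, *Hrk*, *Mcl1* and *Pmaip1*. The AP-1 type was found in 4 and the STAT type, which 8.87% of promoters hold, in 3. A gene with several promoters was counted if any of them matched, whereas the percentages are over promoters, so the units differ. A match describes the letters and is not evidence of binding.

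In the extrinsic route, *Casp8*, the initiator caspase of the death receptor complex, had the widest difference of the 34 genes. Its level was 5.21, 4.49, 5.62, 5.50 and 6.36 in the ACI rats and 8.51, 7.87, 7.22, 8.51 and 8.44 in the BN rats. No ACI rat reached the lowest BN rat, which was BN rat 3. The means were 5.44 ± 0.68 in ACI and 8.11 ± 0.57 in BN (SD, n = 5 each), a 6.38-fold higher level in BN (limma, log2 difference -2.67, SE 0.39, adjusted p = 0.00282). A further probe set of *Casp8* also separated the strains, with 4.02 to 5.65 in ACI and 5.78 to 7.36 in BN (limma, log2 difference -1.58, adjusted p = 0.035).

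*Cflar*, whose product FLIP competes with caspase 8 for the receptor complex, was higher in the same strain. It measured 3.81, 3.85, 3.48, 3.36 and 3.72 in the ACI rats and 6.73, 5.84, 4.44, 5.42 and 5.14 in the BN rats. All ACI rats were near background and all BN rats above it, BN rat 3 again being the lowest of its strain. Because the ACI level is only a bound, the BN mean of 5.51 ± 0.85 (SD, n = 5) was at least 2.86-fold higher than background (limma, fitted log2 difference -1.87, adjusted p = 0.0147). The other probe set of *Cflar* stayed under 4 in every rat and was not called (limma, log2 difference 0.26, adjusted p = 0.472), so the difference rests on 1 of 2 probe sets.

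*Tnfrsf1a*, the main death domain receptor for TNF, was 8.57, 8.37, 8.68, 8.40 and 7.91 in ACI and 8.78, 8.89, 9.26, 9.10 and 9.42 in BN. The lowest BN rat lay just above the highest ACI rat. The mean was 8.39 ± 0.30 in ACI and 9.09 ± 0.26 in BN (SD, n = 5 each), 1.63-fold higher in BN (limma, log2 difference -0.70, adjusted p = 0.0311). This call was the second weakest of the 11, and it passed in only 5 of the 10 fits that leave out 1 rat, with adjusted p up to 0.0723. It was lost without ACI rat 2, ACI rat 4, BN rat 3, BN rat 4 or BN rat 5.

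*Tnfsf10*, which encodes the death ligand TRAIL, was the only extrinsic gene with a difference above 0. It averaged 8.09 ± 0.28 in ACI and 7.38 ± 0.41 in BN (SD, n = 5 each) and was not called (limma, log2 difference 0.71, adjusted p = 0.0711). Without BN rat 4 it was called (limma, log2 difference 0.83, adjusted p = 0.04), and it passed in 6 settings, more than any other uncalled member. The receptor gene *Fas* lay at 5.94 to 5.95 in all 5 ACI rats and at 7.31, 7.28, 6.11, 6.06 and 5.95 in the BN rats. The ACI rats and BN rat 5 thus shared a value, which may be a floor of the probe set rather than a measured level. A weaker probe set of *Fas* was 2.65 in every ACI rat and 2.65 to 4.12 in BN and was not called (limma, adjusted p = 0.183). Only BN rats 1 and 2 therefore stood clearly above the ACI value, and the gene was not called (limma, log2 difference -0.60, adjusted p = 0.277). *Fadd*, the adaptor between receptor and caspase 8, was 6.18, 6.13, 6.40, 6.06 and 6.01 in ACI and 6.83, 6.92, 7.02, 6.58 and 5.82 in BN (limma, log2 difference -0.48, adjusted p = 0.229). Of the BN rats, 4 lay above every ACI rat and BN rat 5 below every one, and without BN rat 5 the gene was called (limma, log2 difference -0.68, adjusted p = 0.0063). *Faslg*, the ligand of FAS carried mainly by cytotoxic lymphocytes, was near background in every rat, so no difference could be measured.

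Among the survival proteins of the BCL2 family, 1 gene was higher in each strain. *Mcl1*, which binds and restrains BAK and BH3-only proteins, was 13.14, 13.37, 13.23, 13.29 and 13.06 in ACI and 11.75, 12.16, 11.77, 12.34 and 12.43 in BN. The strains did not overlap. The mean was 13.22 ± 0.12 in ACI and 12.09 ± 0.32 in BN (SD, n = 5 each), 2.19-fold higher in ACI (limma, log2 difference 1.13, SE 0.15, adjusted p = 0.0018). The other probe set of *Mcl1* gave nearly the same difference, 1.12, with 9.07 to 9.99 in ACI and 8.14 to 8.51 in BN (limma, adjusted p = 0.00254).

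*Bcl2a1*, a survival member of the family that is induced by NF-kB and best known from blood cells, ran the other way. It measured 6.72, 6.91, 7.38, 7.32 and 7.22 in the ACI rats and 10.33, 9.73, 9.68, 9.35 and 8.82 in the BN rats. The gap between the highest ACI rat and the lowest BN rat was wider than the range within ACI. The mean was 7.11 ± 0.28 in ACI and 9.58 ± 0.55 in BN (SD, n = 5 each), 5.55-fold higher in BN (limma, log2 difference -2.47, SE 0.27, adjusted p = 0.000806).

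The other survival members were not called. *Bcl2l1*, which encodes BCL-XL, had a log2 difference of -0.12 (limma, adjusted p = 0.735, 95% interval -0.51 to 0.27), and *Bcl2l2*, which encodes BCL-W, one of 0.15 (limma, adjusted p = 0.484, interval -0.10 to 0.40). For both, the interval leaves out a change of 1.5-fold in either direction. *Bcl2* itself was at 2.62 on all 10 arrays, near background, so that nothing can be said about the founding member of the family.

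Of the 7 measured BH3-only genes, 1 was called. *Bmf*, whose product is held at the cytoskeleton in healthy cells and binds the survival proteins on detachment, was 6.52, 5.80, 6.57, 6.37 and 5.87 in ACI and 3.88, 3.69, 4.46, 4.59 and 3.67 in BN. The ACI rats lay well above the BN rats, of which 3 were near background. The mean was 6.23 ± 0.37 in ACI and 4.06 ± 0.44 in BN (SD, n = 5 each), a fitted 4.49-fold higher level in ACI (limma, log2 difference 2.17, SE 0.25, adjusted p = 0.001). With values under 4 set to 4, the difference was 2.02 (limma, adjusted p = 7.73e-05). *Bcl2l11*, which encodes BIM, had a log2 difference of -0.60 (limma, adjusted p = 0.343), with 6.59 to 7.30 in ACI and 6.97 to 8.69 in BN.

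*Bid*, which links caspase 8 to the mitochondria, had a log2 difference of -0.07 with an interval of -0.62 to 0.48 and was not called (limma, adjusted p = 1). A weaker probe set of *Bid* gave a difference of 1.21 toward ACI that was not called either (limma, adjusted p = 0.0858). *Bad*, *Bbc3* (PUMA) and *Bik* had differences of -0.03, 0.06 and -0.21 (limma, adjusted p from 0.794 to 1). For *Bad* 6 arrays and for *Bbc3* 4 arrays held the same value, 7.23 and 5.64. The interval for *Bik*, -1.77 to 1.35, leaves room for a 2-fold change in either direction. *Hrk*, a BH3-only gene best known from neurons, was near background in every rat.

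The measured effectors were *Bak1* and *Bok*, and limma called 0 of these 2. *Bok* had a log2 difference of -0.63, with 5.74 to 6.16 in ACI and 6.05 to 7.15 in BN (limma, unadjusted p = 0.0176, adjusted p = 0.10). Its second probe set ran toward ACI with 0.43 and was not called (limma, adjusted p = 0.596). *Bak1* had a log2 difference of -0.39 (limma, adjusted p = 0.38), and 7 of the 10 arrays held the same value, 4.08.

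Of the factors that mitochondria release, *Aifm1* was called. It encodes apoptosis-inducing factor, an oxidoreductase that living cells need for their respiratory chain and that moves to the nucleus in some forms of death. Its level was 8.78, 8.92, 8.74, 8.87 and 9.10 in ACI and 8.34, 8.27, 7.94, 8.20 and 7.80 in BN. The strains did not overlap, with 8.88 ± 0.14 in ACI and 8.11 ± 0.23 in BN (SD, n = 5 each), 1.71-fold higher in ACI (limma, log2 difference 0.77, SE 0.12, adjusted p = 0.00371). *Diablo*, whose product relieves caspases from the inhibitors of apoptosis, differed by 0.08 (limma, adjusted p = 0.965, interval -0.38 to 0.54).

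*Endog*, a mitochondrial nuclease, was 4.27, 4.52, 4.25, 4.46 and 4.25 in ACI and 2.61, 2.23, 3.07, 4.25 and 4.25 in BN. BN rats 1 to 3 were near background and BN rats 4 and 5 equal to the lowest ACI rats, and the gene was not called (limma, log2 difference 1.07, adjusted p = 0.146). The apoptosome genes *Apaf1* and *Casp9* differed by 0.15 and -0.07 (limma, adjusted p = 0.818 and 0.89, intervals -0.43 to 0.74 and -0.39 to 0.25). Neither had an unadjusted p under 0.05, and for *Casp9* 4 arrays held 5.05 or 5.06.

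**Figure D2:**
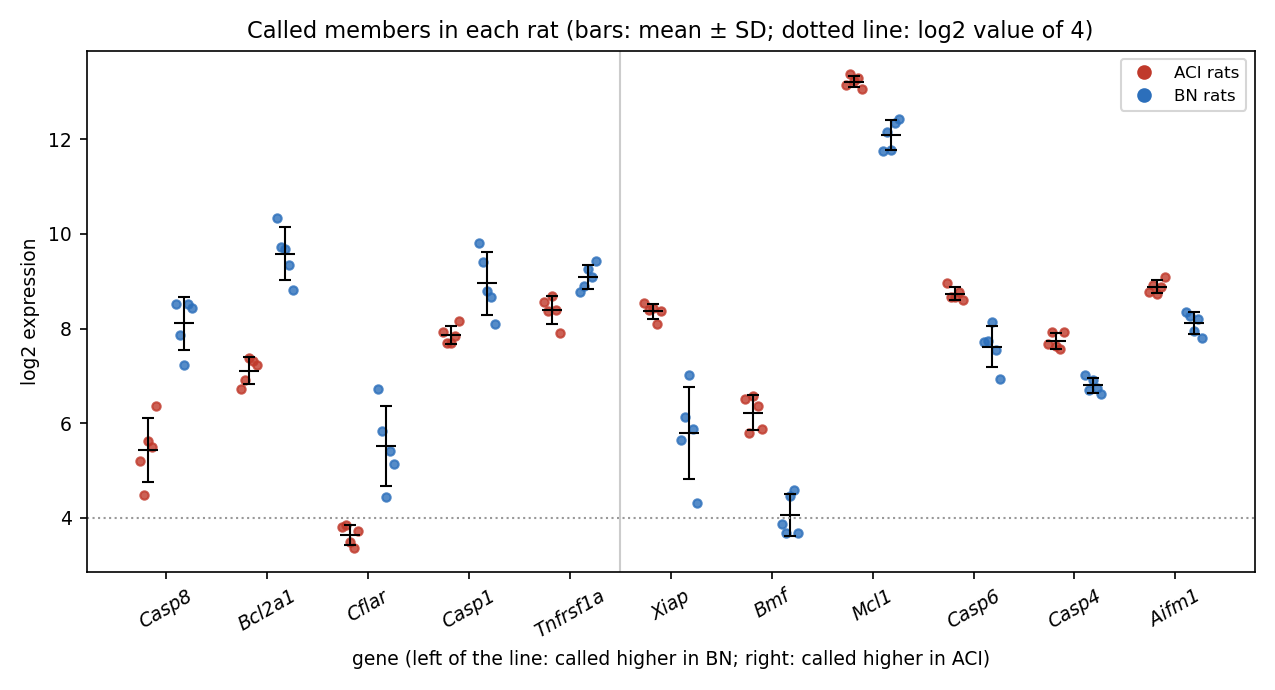
Log2 expression (vertical axis) of the 11 called genes in each of the 5 ACI rats (red) and 5 BN rats (blue), with points for rats, black bars for the strain mean ± SD and a dotted line at 4; genes called higher in BN are left of the vertical line and those called higher in ACI right of it. The strains are separate for 10 genes, and only for *Casp1* does a BN rat (8.10) fall below the highest ACI rat (8.15).

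Downstream of both routes, *Xiap* and *Casp6* were higher in ACI. *Xiap*, the inhibitor that binds caspases 3, 7 and 9 directly, was 8.53, 8.39, 8.43, 8.10 and 8.38 in ACI and 5.64, 6.14, 7.01, 5.87 and 4.31 in BN. The ACI rats lay close together and every BN rat below them, spread over a range of more than 2 on the log2 scale. The mean was 8.37 ± 0.16 in ACI and 5.79 ± 0.98 in BN (SD, n = 5 each), 5.95-fold higher in ACI (limma, log2 difference 2.57, SE 0.43, adjusted p = 0.00591). The second probe set of *Xiap* was 2.48 to 4.85 in ACI and 2.23 to 2.34 in BN, near background in BN, and was called in the same direction (limma, adjusted p = 0.0448).

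*Casp6*, an executioner caspase, was 8.97, 8.67, 8.67, 8.78 and 8.61 in ACI and 7.71, 7.73, 8.13, 7.55 and 6.94 in BN. The strains did not overlap, with 8.74 ± 0.14 in ACI and 7.61 ± 0.43 in BN (SD, n = 5 each), 2.19-fold higher in ACI (limma, log2 difference 1.13, SE 0.20, adjusted p = 0.00736). The other inhibitors, *Birc2* and *Birc3*, which encode the ubiquitin ligases cIAP1 and cIAP2 of TNF receptor signalling, differed by -0.36 and 0.07 (limma, adjusted p = 0.316 and 0.959). *Casp2*, a caspase activated by stress and DNA damage, differed by -0.10 (limma, adjusted p = 0.983), and its weaker probe set by 0.83 (limma, adjusted p = 0.187).

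The inflammatory caspases split between the strains. *Casp4*, which senses bacterial lipopolysaccharide inside cells, was 7.68, 7.93, 7.63, 7.56 and 7.92 in ACI and 7.02, 6.71, 6.91, 6.74 and 6.61 in BN. Every ACI rat lay above every BN rat, with 7.74 ± 0.17 and 6.80 ± 0.17 (SD, n = 5 each), 1.93-fold higher in ACI (limma, log2 difference 0.95, SE 0.10, adjusted p = 0.000796). *Casp1*, the caspase of the inflammasome that matures interleukin 1β, was 7.93, 7.69, 7.70, 7.84 and 8.15 in ACI and 9.80, 9.40, 8.80, 8.67 and 8.10 in BN. BN rat 5 lay within the ACI range and the other BN rats above it. The mean was 7.86 ± 0.19 in ACI and 8.95 ± 0.66 in BN (SD, n = 5 each), 2.13-fold higher in BN (limma, log2 difference -1.09, SE 0.30, adjusted p = 0.0486, two-sided exact permutation p = 0.016). This was the weakest of the 11 calls. It held in 1 of the 10 fits that leave out 1 rat, the fit without BN rat 5, and the adjusted p rose to as much as 0.112 in the others. *Casp12*, a caspase of the endoplasmic reticulum, differed by -0.46 and was not called (limma, adjusted p = 0.344), but was without BN rat 5 (limma, log2 difference -0.67, adjusted p = 0.043).

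For the 10 called genes whose strains did not overlap, the two-sided exact permutation test gave p = 0.0079, the smallest value that 5 rats against 5 allow. Any gene without overlap gets this value, so it restates the separation and adds no further support. *Casp8*, *Cflar*, *Mcl1*, *Bcl2a1*, *Bmf*, *Aifm1*, *Casp6*, *Xiap* and *Casp4* were called in all 10 fits that leave out 1 rat, with adjusted p up to 0.0439. Of the 34 genes, 13 have more than 1 probe set of their own. Of the called genes, *Casp8*, *Mcl1* and *Xiap* were called in the same direction by their second probe sets and *Cflar* was not.

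**Figure D3:**
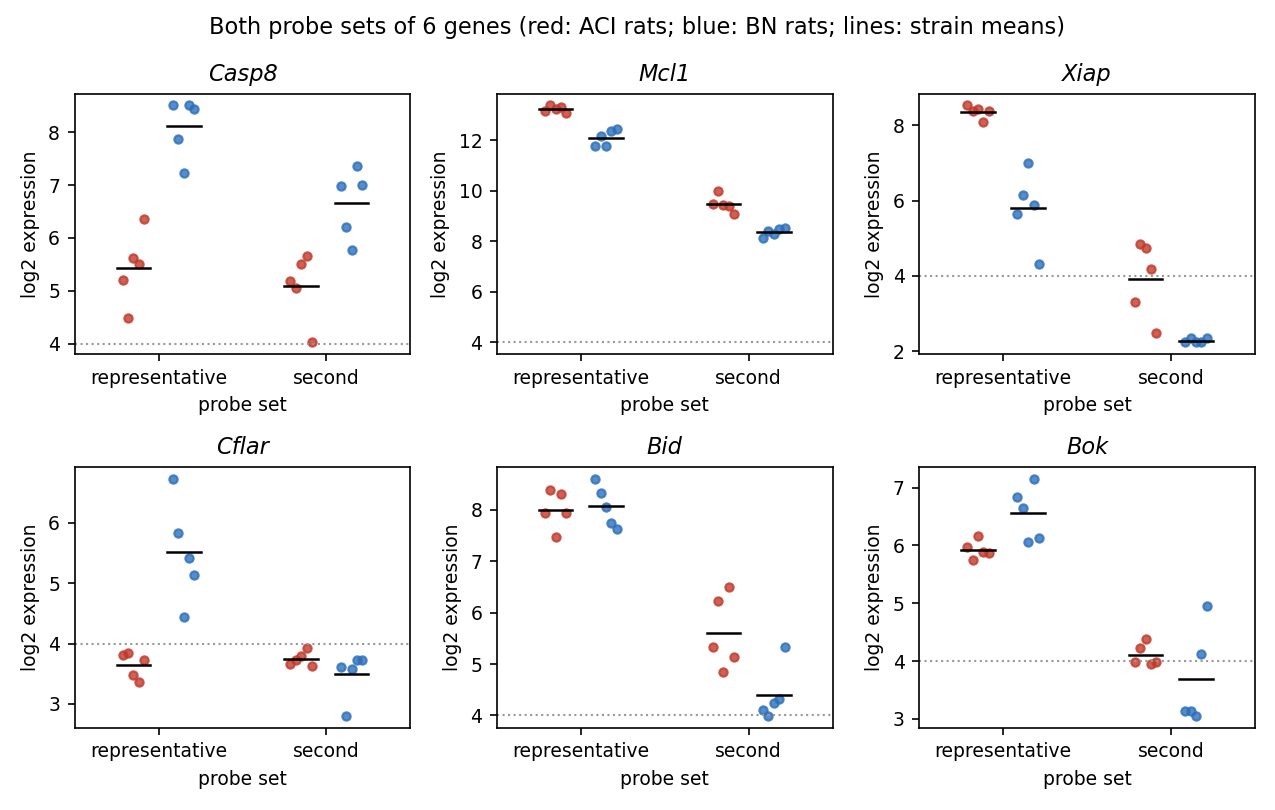
Log2 expression (vertical axis) in each ACI rat (red) and BN rat (blue) by the representative and the second probe set of *Casp8*, *Mcl1*, *Xiap*, *Cflar*, *Bid* and *Bok*, 1 panel per gene, with black lines for strain means and a dotted line at 4. The strain difference of *Mcl1* is 1.13 and 1.12 by its 2 probe sets, whereas that of *Cflar* is -1.87 and 0.26.

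The rats of the ACI strain were more alike than those of the BN strain for these genes. The median SD over rats was 0.20 in ACI and 0.44 in BN over the 30 genes with a mean of at least 4, and 0.24 and 0.38 over all genes with such a mean. The SD was larger in BN for 27 genes and larger in ACI for 6. The animal IDs open with S for rats 1 to 3 and with H for rats 4 and 5 of each strain, letters that the labels leave unexplained. *Bcl2a1* differed by -2.91 among the S rats and by -1.81 among the H rats, *Mcl1* by 1.35 and 0.79, and *Casp8* by -2.76 and -2.54, so that the direction was the same in both. All 11 called genes remained called with the letter as a block in the limma fit, and each kept its direction within both letters. *Casp1* differed by -1.56 among the S rats and by -0.39 among the H rats. The difference between letters was itself called for 1 of the 34 genes, *Apaf1*, and for 3.01% of all genes.

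Markers of immune and other cells differed with strain too. Their counts stand beside 17.4% of all genes called, and 24.7% of those with a mean of at least 4. In bulk tissue, fewer cells of a type and less RNA per cell cannot be told apart. Of the 9 measured B and plasma cell markers, 9 were called higher in BN, and their mean level was 2.87 to 2.98 in the ACI rats and 9.00, 8.09, 4.09, 8.46 and 8.39 in the BN rats. Of the 13 T cell markers, 7 were called higher in BN, with means of 4.24 to 4.58 in ACI and 7.30, 6.40, 4.64, 6.99 and 6.62 in BN. Both list means of BN rat 3 thus lay far below those of the other BN rats and nearer to ACI. Single markers varied in this. *Ms4a1* was 2.23 in BN rat 3 and in every ACI rat. *Jchain* was 10.41 in BN rat 3, against at most 7.12 in ACI, and *Cd3g* 8.10, against at most 7.02 in ACI. The mean of the 11 macrophage markers was 8.18 to 8.67 in ACI and 9.18 to 9.83 in BN, with 6 called higher in BN and the highest level in BN rat 3. That of the 11 luminal epithelium markers was 10 to 10.40 in ACI and 9.02 to 9.66 in BN, with 5 called higher in ACI. That of the 6 basal epithelium markers was 8.43 to 8.92 in ACI and 7.70 to 8.46 in BN, with 1 called higher in ACI. For both epithelial lists the highest BN level was that of BN rat 3. In the other direction went 2 T cell, 3 macrophage, 2 luminal and 1 basal markers, none of them called.

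The mean of the 5 granulocyte and mast cell markers was 3.27 to 3.75 in ACI and 7.27, 7.28, 6.27, 4.99 and 4.51 in BN, with 2 called higher in BN. BN rats 4 and 5 had the lowest BN values of this list, as they did of *Casp1* and *Bcl2a1*. Of the 6 endothelium markers, 4 were called higher in BN, with means of 6.52 to 7.27 in ACI and 7.82 to 8.75 in BN. The 7 skeletal muscle markers had a median difference of 3.71 toward ACI with 0 called by limma, where 3 had an unadjusted p under 0.05, and their means, 7.10 to 11.93 in ACI and 3.26 to 10.75 in BN, overlapped.

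BN rat 3 had the lowest BN values of *Casp8* (7.22) and *Cflar* (4.44) and the highest BN values of *Xiap* (7.01) and *Casp6* (8.13), each of which is the BN value nearest to ACI. For *Bcl2a1* its value, 9.68, was the median of the BN rats, and for *Mcl1*, 11.77, close to the lowest. All 4 genes *Casp8*, *Cflar*, *Xiap* and *Casp6* nevertheless separated BN rat 3 from every ACI rat. Without BN rat 3, 6 genes were called higher in ACI and 4 in BN. *Tnfrsf1a* (limma, adjusted p = 0.0674) and *Casp1* (limma, adjusted p = 0.0777) were then no longer called, and *Bok* was newly called (limma, log2 difference -0.76, adjusted p = 0.0493). With the mean level of the B, plasma and T cell markers as a covariate, limma called *Mcl1* of the 11 (log2 difference 1.42, adjusted p = 0.0408) and the differences kept their direction, from -2.47 for *Bcl2a1* (limma, adjusted p = 0.0686) to -0.39 for *Cflar* (limma, adjusted p = 1) on the BN side. On the ACI side they ran from 0.57 for *Casp6* (limma, adjusted p = 0.631) to 1.77 for *Bmf* (limma, adjusted p = 0.127). *Bak1*, called in no other setting, passed there toward BN (limma, log2 difference -1.39, adjusted p = 0.0271). The lymphocyte level used there was 3.72 to 3.91 in ACI and 4.42 to 7.99 in BN, so it did not overlap between strains, nor did the macrophage and luminal levels. Each of these covariates can hardly be told apart from strain in such a fit. The part of cell composition in these differences was not tested beyond these values.

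**Figure D4:**
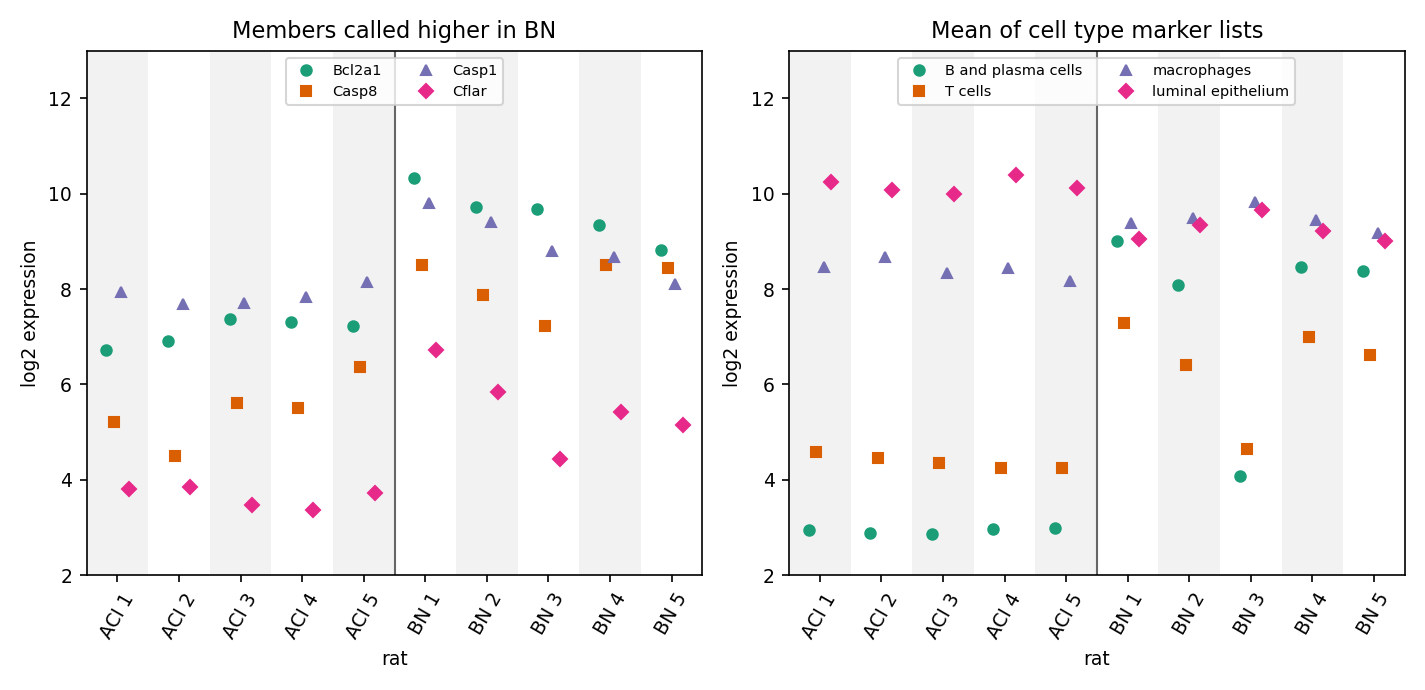
Left, log2 expression of *Bcl2a1*, *Casp8*, *Casp1* and *Cflar* in each rat; right, the mean log2 level of the marker lists of B and plasma cells, T cells, macrophages and luminal epithelium in the same rats, with a vertical line between the strains. The lymphocyte lists fall to 4.09 and 4.64 in BN rat 3, where *Casp8* (7.22) and *Cflar* (4.44) are lowest within BN and *Bcl2a1* (9.68) is not. The luminal epithelium list (9.66) and the macrophage list (9.83) are highest within BN in the same rat.

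Other genes of the pathway were taken from a list of 77, of which 64 are measured by a probe set of their own. Of these, 14 were called, 4 higher in ACI and 10 higher in BN, with a median difference of -0.06. This is 21.9%, between the 17.4% of all genes and the 24.7% of genes with a mean of at least 4. The list holds 18 measured genes of death receptor signalling, of which 1 was higher in ACI and 3 in BN, and 13 of the mitochondrial route, with 1 in each direction. Limma called 0 of the 5 executioner and substrate genes measured, of which *Parp1* and *Gas2* had an unadjusted p under 0.05, the latter near background in both strains. The 4 genes higher in ACI were *Tnfrsf21* (death receptor 6), *Bcl2l14*, a BCL2 family gene, *Relb*, an NF-kB subunit, and the kinase gene *Akt1*, a survival signal.

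*Tnfrsf21* was 11.05, 10.07, 10.33, 11.34 and 10.20 in ACI and 7.79, 7.37, 8.95, 8.18 and 7.91 in BN, 5.89-fold higher in ACI (limma, log2 difference 2.56, adjusted p = 0.00234). Every ACI rat lay above every BN rat, a direction opposite to that of the 3 extrinsic members called higher in BN. *Bcl2l14* was 2.89-fold higher in ACI, with 8.88 to 9.54 in ACI and 7.30 to 8.30 in BN (limma, log2 difference 1.53, adjusted p = 0.00138). *Relb* and *Akt1* were higher by 0.58 and 0.55 on the log2 scale (limma, adjusted p = 0.0277 and 0.00886).

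On the BN side, 2 of the 4 measured inflammasome genes were called, beside *Casp1*, itself the weakest call among the members. Among all genes 17.4% were called, and 24.7% of those with a mean of at least 4. *Il1b*, the cytokine that caspase 1 matures, was 4.23, 4.66, 5.28, 4.64 and 4.95 in ACI and 7.64, 6.89, 7.27, 5.96 and 6.16 in BN, 4.09-fold higher in BN (limma, log2 difference -2.03, adjusted p = 0.00717). *Pycard*, whose product ASC is the adaptor that recruits caspase 1, was 7.72 to 8.39 in ACI and 9.05 to 10 in BN, 2.69-fold higher in BN (limma, log2 difference -1.43, adjusted p = 0.00229). Neither gene overlapped between strains. The other measured inflammasome genes, *Il18* and *Gsdmd*, named after their values were seen, overlapped and were not called. Their log2 differences were -0.54 and -0.70 (limma, adjusted p = 0.499 and 0.164).

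Of the 7 p53 pathway genes measured, the cell cycle inhibitor gene *Cdkn1a* was 2.59-fold higher in BN (limma, log2 difference -1.37, adjusted p = 0.00182) and *Sesn1*, a stress response gene, 2.93-fold (limma, log2 difference -1.55, adjusted p = 0.0167). *Tnfaip8*, a TNF-induced gene, was 3.34-fold higher (limma, log2 difference -1.74, adjusted p = 0.0131) and *Ddit3*, the CHOP gene of the unfolded protein response, 1.87-fold, with overlap between strains (limma, log2 difference -0.90, adjusted p = 0.0333). The remaining 4 called genes were *Ripk3*, *Tnfrsf1b*, *Dapk1* and *Bnip3*, which lie outside the rule for named genes and are named after their values were seen. *Ripk3*, the kinase of necroptosis that caspase 8 normally restrains, was 4.25, 4.16, 3.90, 3.90 and 4.44 in ACI and 6.67, 6.43, 5.48, 5.54 and 5.72 in BN, 3.58-fold higher in BN (limma, log2 difference -1.84, adjusted p = 0.00252).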

How the data were processed

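Per the submitters' processing notes, the deposited log2 values were made by the authors with GCRMA 2.18.1, which corrects background by probe sequence and normalizes arrays together. The sources used here do not say which arrays entered that step together. The values were used unchanged. Of the probe sets, 57 control probe sets were left out and 31042 tested, of which 20826 carry 1 symbol in the platform annotation, 436 several and 9780 none, and 20758 were matched by gene ID to a RefSeq gene table. Strains were taken from the labels. limma 3.58.1 under R 4.3.3 was fitted with strain as the only term, and Benjamini-Hochberg adjustment was made over all probe sets. The number of arrays, 5 per strain, limits the precision. The fit was tested on simulated data.

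The members, roles, pathway and marker lists were chosen with earlier results of these data known, so lists are given by counts and medians with no test. Every member is named, with the values of every rat for called members. From the other pathway genes, called genes whose higher strain averaged at least 6 were named, to at most 6 in each direction.

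Alternatives were a block for replicate number or ID letter, each letter alone, a filter or a floor at 4, quantile normalization, median centring, the methods' and Welch's tests, a trended robust variance, array weights, the mean over a gene's probe sets, leaving out cross-hybridizing probe sets, leaving out each rat or BN rats 4 and 5, and lymphocyte marker level as a covariate. Macrophage and luminal levels as covariates were chosen after seeing the data.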

Additional observations from a re-analysis of the deposited data

Results flagged for a closer look

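In 63 groups of 5 rats, the highest or lowest rat was compared with the other 4 by its gap as a share of the range, and 6 values stood apart. Chance passes this test in about 1 of 20 groups, a rate that does not hold where rats share a value. For *Faslg*, *Bak1* and *Hrk* the other 4 rats were at 1 value, so the gap was the whole range whatever its size. *Bik* was 3.57 in ACI rat 5 and 5.98 to 6.78 in the other ACI rats. *Bak1* was 3.61 in ACI rat 5 and 4.08 in the others, a value that 7 of the 10 arrays share. *Bad* was 7.36 in ACI rat 2 against 7.19 to 7.23 in the others, and 7.43 in BN rat 3 against 7.23 to 7.27. Near background, *Faslg* was 2.85 in BN rat 1 against 2.60 in the other BN rats, and *Hrk* 2.46 in ACI rat 2 against 2.23 in the other ACI rats. None of these genes was called between strains.

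The strain difference of *Apaf1*, which forms the core of the apoptosome, differed between the ID letters in limma's interaction test (adjusted p = 0.0394). *Apaf1* was 7.83, 7.62 and 7.96 in the ACI rats and 8.15, 8.03 and 8.01 in the BN rats whose IDs open with S, a log2 difference of -0.26. It was 7.75 and 7.87 in the ACI rats and 7.18 and 6.89 in the BN rats whose IDs open with H, a log2 difference of 0.78. BN rats 4 and 5 alone lay below the ACI rats. Over all genes, 3.01% passed this interaction test, and the letters rest on 3 and 2 rats per strain.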

How the results depend on the processing

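Of the 11 called genes, *Mcl1* was called in 15 of 16 alternatives that leave out no single rat, the macrophage and luminal covariates aside, *Casp8*, *Bcl2a1*, *Bmf*, *Casp6*, *Xiap* and *Casp4* in 14, *Aifm1* in 13, *Cflar* in 12, *Casp1* in 10 and *Tnfrsf1a* in 8. Each of these 11 genes kept its direction in every setting, those 2 covariates included. The pro-death median, -0.06 as reported, did change sign, to 0.60 with macrophage level. It was also just above 0 with the mean over probe sets, 0.01, and without BN rat 1, 0.001. Replicate numbers did not pair the rats (correlations of deviations between same-numbered rats from -0.25 to 0.23), and with a replicate block 5 members were called toward ACI, 3 toward BN (*Aifm1*, *Casp1* and *Tnfrsf1a* were lost), 5 other pathway genes toward BN and 1926 probe sets in all, against 3930. With the H rats alone, 2 per strain, 0 members and 0 other pathway genes were called, with 100 probe sets in all, and the extrinsic median was -0.17. Members called toward BN, 5 as reported, numbered 2 by Welch's test (2444 probe sets), 3 with a trended robust variance and 9 with array weights (8397 probe sets, and 10 and 21 other pathway genes toward ACI and BN). They numbered 3 to 6 when 1 rat was left out, with 3 without ACI rat 2, ACI rat 4 or BN rat 4, and probe sets then numbered 2598 (without ACI rat 4) to 4618, and 6350 without BN rats 4 and 5. Other pathway genes toward ACI, 4 as reported, numbered 8 with the filter, 9 with the floor and 7 with the mean over probe sets. With lymphocyte level as a covariate, 1 member was called in each direction, 0 and 2 other pathway genes and 1227 probe sets, and the extrinsic median was -0.39. With macrophage level, 0 and 1 members (*Casp8*) were called, 0 other pathway genes and 121 probe sets, and the mitochondrial and pro-death medians were 0.68 and 0.60. With luminal level, 0 members, 0 other pathway genes and 87 probe sets were called, and the extrinsic, mitochondrial, pro-survival and pro-death medians were -0.36, -0.44, -0.35 and -0.39. The causes were not tested. The methods' t-test called 14 members and 7434 probe sets at an unadjusted p under 0.05 and 10 and 3595 after adjustment. Of the uncalled members, *Tnfsf10* passed in 6 settings, *Bok* in 5, *Casp12* and *Fadd* in 4 each, *Endog* in 3 and *Bak1*, *Fas* and *Bcl2* in 1 each. The members near background in both strains, *Bcl2*, *Faslg* and *Hrk*, allow no statement about a difference.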
